A study of Homo sapiens with 30 samples.

Results

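The expression response to RB1 knockdown was measured in prostate cancer cells held under an inhibitor of the histone demethylase LSD1. The 4 libraries compared, of 30 samples in the series, were chosen by their labels: 2 from C4-2-tet-shRB cells given doxycycline and the LSD1 inhibitor GSK2879552, and 2 from the same line given GSK2879552 without doxycycline. C4-2 is a castration-resistant derivative of the LNCaP line, and in C4-2-tet-shRB a short hairpin RNA against RB1 is switched on by doxycycline. The first group, written Dox-GSK here, received doxycycline at 0.05 µg/ml for 3 days followed by 24 hours of GSK2879552 at 10 µM. The second, written GSK, received GSK2879552 at 10 µM for 24 hours and no doxycycline. The same table held 2 Dox-DMSO libraries, labelled with doxycycline at 0.05 µg/ml for 3 days, and 2 DMSO libraries labelled as untreated, in which DMSO is given by the sample name. Cells of these 4 groups were kept in RPMI medium with 5% charcoal-stripped serum, which is low in steroid hormones. The labels do not say whether doxycycline stayed on during the inhibitor day, whether the line is a single clone, or whether libraries came from separate cultures, so p-values measure the spread between these libraries, which may be technical. No library of cells with doxycycline and no RB1 hairpin was analysed here, so that loss of RB1, expression of a hairpin and doxycycline itself cannot be told apart.

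The retinoblastoma protein, encoded by RB1, binds E2F transcription factors and holds down the genes that cells use to enter S phase. When cyclin-dependent kinases phosphorylate it, or when it is lost, E2F factors are released and those genes are transcribed. LSD1, encoded by KDM1A, removes methyl groups from histone H3 and acts within complexes such as CoREST, where it is best known as a repressor of transcription. The comparison asks what changes with RB1 knockdown while LSD1 is inhibited, and whether that change differs from the change without the inhibitor.

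Counts totalled 19599361 and 15845326 in the Dox-GSK libraries and 21886244 and 16226452 in the GSK libraries. The spread between replicates, as a chi-square ratio in which counting error alone gives about 1, was 2.62 for the Dox-GSK pair and 7.88 for the GSK pair, against 1.61 for Dox-DMSO and 3.56 for DMSO. The GSK pair thus stood apart, and its libraries had the lowest quality weights in the table, 0.514 and 0.528, where the other 6 had 1.08 to 1.59. All 10 markers of prostate epithelium had counts in each of the 8 libraries. Immune markers summed to 1.63 and 1.70 CPM in Dox-GSK cells, against 1.64 and 1.73 CPM in GSK cells. Stromal and endothelial markers summed to 51.6 and 52.8 CPM in Dox-GSK cells, against 50.8 and 60.8 CPM in GSK cells. Basal epithelial markers summed to 37.5 and 35.4 CPM in Dox-GSK cells, against 30.2 and 34.1 CPM in GSK cells.

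RB1 itself was reduced. It stood at 5.84 and 6.74 CPM in Dox-GSK cells, against 32.7 and 22.1 CPM in GSK cells, where CPM is the count per 1000000 after TMM scaling of the libraries. The GSK libraries differed from each other by more than the Dox-GSK libraries did, and the groups did not overlap. The decrease was a log2 fold change of -2.14 ± 0.18 (SE), adjusted p = 2.53e-06, in edgeR's quasi-likelihood test over 18423 genes with Benjamini-Hochberg adjustment, which gives each adjusted p-value below unless another test is named. In bulk RNA, knockdown in fewer cells and a lower level in each cell cannot be told apart. KDM1A, the target of the inhibitor, had 102 and 100.1 CPM in Dox-GSK cells, against 112 and 105 CPM in GSK cells, and did not pass the test (log2 fold change -0.10 ± 0.07 (SE), adjusted p = 0.408).

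MIR30A, the precursor gene of the miR-30a microRNAs, had the largest rise. It had 95.7 and 101 CPM in Dox-GSK cells, against 2.53 and 2.06 CPM in GSK cells, which is 1869 and 1617 counts in Dox-GSK cells, against 55 and 33 counts in GSK cells. The rise was a log2 fold change of 5.40 ± 0.12 (SE), adjusted p = 5.01e-15. The libraries count reads over the precursor locus and do not measure mature microRNAs. Flanking sequence of miR-30a is used in many inducible hairpin vectors, and the vector of this line is not given in the sources used here, so its part in these counts was not tested. The annotated locus gives a mature strand from each arm, shown because they are the sequence of the gene with the largest change. The capitals mark the seed, bases 2 to 8, and the seeds of the arms differ (RefSeq, GRCh38.p14, chr6:71403551-71403621, minus strand).
hsa-miR-30a-5p: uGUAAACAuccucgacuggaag
hsa-miR-30a-3p: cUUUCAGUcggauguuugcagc
The rise of MIR30A was also present without the inhibitor, with a log2 fold change of 5.43.

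**Figure D1:**
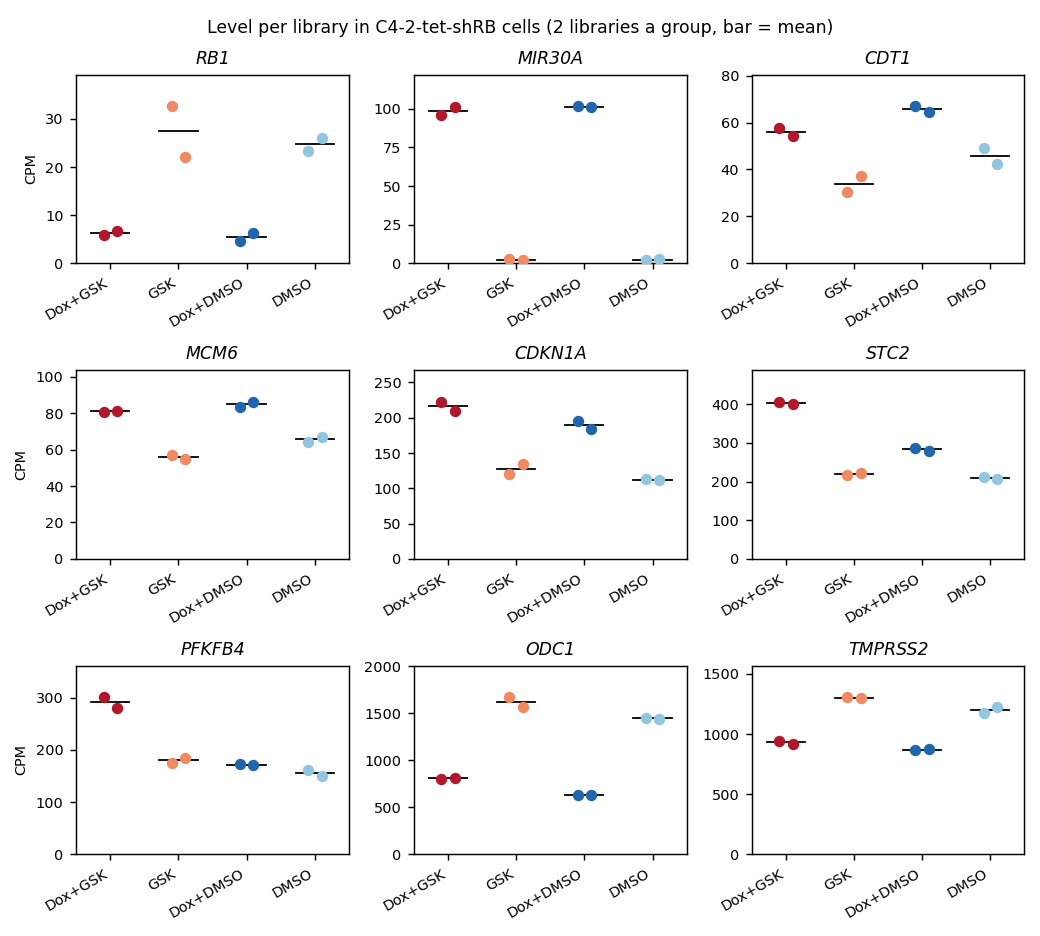
Levels in CPM (vertical axis from 0) of 9 genes in each library of the 4 groups of the table, 2 libraries a group, with the group mean as a bar. RB1 lay at 5.84 and 6.74 CPM in Dox-GSK cells, against 32.7 and 22.1 CPM in GSK cells, and PFKFB4 was highest in the Dox-GSK libraries.

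Across the genome 832 genes rose and 590 fell in Dox-GSK cells relative to GSK cells at an adjusted p under 0.05. That is 7.72% of the genes tested, 4.52% in the upward and 3.20% in the downward direction, and these shares are the background for each gene list below. Changes were small: 57 of the genes that rose and 23 of those that fell changed at least 2-fold. The number depended on single libraries. Leaving out 1 library left its group with 1, so the spread was then estimated from the other pairs alone. Without a GSK library, the pair with the widest spread no longer entered that estimate. The counts below and in the lists with a library left out are therefore not like-for-like with the main fit. Without Dox-GSK replicate 1 there were 285 rises and 201 falls, and without Dox-GSK replicate 2 there were 188 and 128. Without GSK replicate 1 there were 1625 and 1576, and without GSK replicate 2 there were 1336 and 1129. Rises numbered 525 and 524 when Dox-DMSO replicate 1 or 2 was left out, since these libraries take part in the estimate of the spread. When the 4 libraries were fitted alone the counts were 274 and 203.

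Genes of DNA replication entry rose together. Of 55 E2F-driven G1/S genes, 31 rose and none fell, and their median log2 fold change was 0.33, where that of all genes tested was 0.01. The count was 10 without Dox-GSK replicate 1 and 9 without Dox-GSK replicate 2, and 13 in the fit of the 4 libraries alone. Among 18 genes of the MCM helicase and origin licensing, 12 rose and none fell (median 0.42), a count that was 7 without either Dox-GSK library. The MCM genes belong to both lists. CDT1, which loads the MCM helicase onto origins, had 57.7 and 54.1 CPM in Dox-GSK cells, against 30.3 and 37.0 CPM in GSK cells. Its groups were well apart, and it rose by a log2 fold change of 0.74 ± 0.10 (SE), adjusted p = 0.000259. MCM6, a subunit of the helicase ring, had 80.6 and 81.5 CPM in Dox-GSK cells, against 57.4 and 54.9 CPM in GSK cells (log2 fold change 0.53 ± 0.07 (SE), adjusted p = 0.000293). MCM2, another subunit, had 232 and 225 CPM in Dox-GSK cells, against 163 and 173 CPM in GSK cells (log2 fold change 0.45 ± 0.06 (SE), adjusted p = 0.000335). MCM4 had 185 and 187 CPM in Dox-GSK cells, against 134 and 134 CPM in GSK cells (log2 fold change 0.47 ± 0.06 (SE), adjusted p = 0.000259). In these 4 genes the lowest Dox-GSK library was above the highest GSK library, and each call held when any 1 of the 8 libraries was left out.

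The promoters of some of the genes that rose carry the binding motif of E2F factors. Windows of 7 such genes were read, and the 4 that held a match are shown. Those of E2F7, STC2 and CDKN1A held none, which says only that these letters are not in those windows. The window from 250 bases before to 50 after each RefSeq gene start (GRCh38.p14) was searched for TTTCCCGC, TTTCGCGC, TTTGCCGC and TTTGGCGC on both strands. A match on one strand can overlap one on the other, as in MCM2 and MCM6. Capitals mark the matches. The windows are those of E2F1 at chr20:33686336-33686635, minus strand; MCM2 at chr3:127598161-127598460, plus strand; MCM6 at chr2:135876394-135876693, minus strand; and CDT1 at chr16:88803539-88803838, plus strand.
E2F1: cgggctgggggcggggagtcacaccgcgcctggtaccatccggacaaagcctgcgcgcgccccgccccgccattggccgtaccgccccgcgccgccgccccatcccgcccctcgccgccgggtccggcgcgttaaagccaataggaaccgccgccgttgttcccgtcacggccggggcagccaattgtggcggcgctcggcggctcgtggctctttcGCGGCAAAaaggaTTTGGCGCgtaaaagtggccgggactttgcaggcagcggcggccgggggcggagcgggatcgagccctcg
MCM2: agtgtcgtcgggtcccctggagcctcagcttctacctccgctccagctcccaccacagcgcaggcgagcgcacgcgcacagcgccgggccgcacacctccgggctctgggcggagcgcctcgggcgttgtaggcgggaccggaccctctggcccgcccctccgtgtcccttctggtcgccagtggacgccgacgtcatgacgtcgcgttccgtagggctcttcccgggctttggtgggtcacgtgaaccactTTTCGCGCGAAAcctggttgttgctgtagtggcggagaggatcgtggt
MCM6: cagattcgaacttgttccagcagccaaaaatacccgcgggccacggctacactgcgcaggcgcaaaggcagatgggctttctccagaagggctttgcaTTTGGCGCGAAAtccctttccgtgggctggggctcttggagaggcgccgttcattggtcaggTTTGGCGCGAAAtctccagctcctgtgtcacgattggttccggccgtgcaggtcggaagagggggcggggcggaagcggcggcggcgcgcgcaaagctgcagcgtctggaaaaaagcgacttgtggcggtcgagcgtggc
CDT1: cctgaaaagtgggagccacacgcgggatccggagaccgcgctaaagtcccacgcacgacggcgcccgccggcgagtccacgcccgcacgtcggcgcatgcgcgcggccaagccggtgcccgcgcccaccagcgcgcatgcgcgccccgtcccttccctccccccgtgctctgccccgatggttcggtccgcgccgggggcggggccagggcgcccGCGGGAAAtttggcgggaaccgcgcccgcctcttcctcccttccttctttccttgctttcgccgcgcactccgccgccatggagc
Of 27305 such windows, 908 (3.33%) held a match. Of the 55 E2F-driven G1/S genes, 45 had a window in the table and 23 of these (51.1%) held a match. Among the members that rose it was 17 of 25 (68.0%), and among those that did not pass it was 6 of 20 (30.0%). The list consists of known E2F targets, so its share of motifs is not independent of its choice, and no test was made. A match is a description of the letters and not of binding.

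The E2F factors and the pocket protein family themselves changed in part. Of 10 E2F and DP factors, 3 rose and none fell, and 1 did without either Dox-GSK or either Dox-DMSO library. E2F7, a repressor of E2F targets, had 20.1 and 22.5 CPM in Dox-GSK cells, against 10.9 and 12.008 CPM in GSK cells, and rose by a log2 fold change of 0.90 ± 0.12 (SE), adjusted p = 0.000282. E2F1, the leading activator of the family, had 64.1 and 58.7 CPM in Dox-GSK cells, against 47.8 and 50.2 CPM in GSK cells. Its rise was smaller (log2 fold change 0.33 ± 0.08 (SE), adjusted p = 0.0177), and the call was lost without either Dox-GSK or either Dox-DMSO library. E2F2, also an activator, had 13.1 and 14.8 CPM in Dox-GSK cells, against 8.83 and 11.3 CPM in GSK cells, with a log2 fold change of 0.48 ± 0.13 (SE), adjusted p = 0.037, and its call was lost when any 1 of 7 of the 8 libraries was left out. Among 8 pocket proteins and partners, RBL1 rose and RB1 and RBL2 fell. RBL1, which encodes p107 and is itself an E2F target, had 21.9 and 23.7 CPM in Dox-GSK cells, against 16.3 and 14.3 CPM in GSK cells (log2 fold change 0.56 ± 0.11 (SE), adjusted p = 0.00414), and its call was lost without Dox-GSK replicate 2. RBL2, which encodes p130 of quiescent cells, had 133 and 143 CPM in Dox-GSK cells, against 196 and 183 CPM in GSK cells (log2 fold change -0.46 ± 0.07 (SE), adjusted p = 0.000677).

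Among 9 G1 cyclins and their kinases 4 rose, and among 7 inhibitors of these kinases 1 rose. The count of 4 was 2 in the fit of the 4 libraries alone and 1 without Dox-GSK replicate 2. CDK2, the kinase of S phase entry, had 79.7 and 78.4 CPM in Dox-GSK cells, against 54.2 and 52.4 CPM in GSK cells (log2 fold change 0.57 ± 0.08 (SE), adjusted p = 0.000296). CCND1, which encodes cyclin D1, had 721 and 740.1 CPM in Dox-GSK cells, against 585 and 599 CPM in GSK cells. The Dox-GSK libraries were above the GSK libraries by less than the fold of CDK2 (log2 fold change 0.30 ± 0.06 (SE), adjusted p = 0.00395), and the call was lost without Dox-GSK replicate 2. CCNA2, cyclin A of S phase, had 32.8 and 35.7 CPM in Dox-GSK cells, against 25.3 and 23.5 CPM in GSK cells (log2 fold change 0.48 ± 0.09 (SE), adjusted p = 0.00392), and CDC25A, a phosphatase that activates CDK2, had 20.9 and 20.5 CPM in Dox-GSK cells, against 15.8 and 15.2 CPM in GSK cells (log2 fold change 0.42 ± 0.12 (SE), adjusted p = 0.0385). The call of CCNA2 was lost without Dox-GSK replicate 2, and that of CDC25A without either Dox-GSK or either Dox-DMSO library. CDKN1A, the p53-induced inhibitor of these kinases, had 223 and 209.8 CPM in Dox-GSK cells, against 121 and 134 CPM in GSK cells. It rose by a log2 fold change of 0.77 ± 0.07 (SE), adjusted p = 8.17e-06, and no left-out library ended that call.

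Genes of DNA repair and of mitosis rose in part. In the homologous recombination and Fanconi repair list 8 of 25 genes rose and none fell (median 0.24). Without either Dox-GSK library 2 rose, and 4 or 5 did without any 1 Dox-DMSO or DMSO library. FANCA, of the Fanconi core complex, had 33.0 and 30.7 CPM in Dox-GSK cells, against 21.8 and 21.1 CPM in GSK cells (log2 fold change 0.57 ± 0.10 (SE), adjusted p = 0.0027), and no left-out library ended its call. RAD54L, which acts in strand exchange, had 28.3 and 26.4 CPM in Dox-GSK cells, against 18.5 and 19.9 CPM in GSK cells (log2 fold change 0.51 ± 0.10 (SE), adjusted p = 0.00386), and its call was lost without Dox-GSK replicate 1. BRCA1 had 47.5 and 47.9 CPM in Dox-GSK cells, against 37.0 and 33.7 CPM in GSK cells (log2 fold change 0.43 ± 0.08 (SE), adjusted p = 0.00498), and XRCC2, of homologous recombination, had 20.9 and 21.4 CPM in Dox-GSK cells, against 15.9 and 13.2 CPM in GSK cells (log2 fold change 0.53 ± 0.11 (SE), adjusted p = 0.00927). The calls of BRCA1 and XRCC2 were lost without either Dox-GSK library. Of 46 mitotic genes 7 rose and none fell (median 0.19), and 0 did without Dox-GSK replicate 2, 2 without Dox-GSK replicate 1, 4 without any 1 Dox-DMSO or DMSO library, 24 without GSK replicate 1 and 11 without GSK replicate 2. AURKB, a mitotic kinase, had 39.5 and 38.2 CPM in Dox-GSK cells, against 28.3 and 30.0 CPM in GSK cells (log2 fold change 0.42 ± 0.09 (SE), adjusted p = 0.00658). TOP2A, a topoisomerase, had 157 and 158 CPM in Dox-GSK cells, against 137 and 113 CPM in GSK cells (log2 fold change 0.33 ± 0.08 (SE), adjusted p = 0.0217), and MKI67, the Ki-67 gene, had 234 and 229 CPM in Dox-GSK cells, against 197 and 189.6 CPM in GSK cells (log2 fold change 0.26 ± 0.06 (SE), adjusted p = 0.0165). The calls of these 3 genes were lost without either Dox-GSK library, and that of MKI67 also without either Dox-DMSO library.

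Of 21 measured replication-dependent histone genes, 4 rose and none fell, and 2 rose without Dox-GSK replicate 2. HIST1H2BJ had 19.7 and 18.5 CPM in Dox-GSK cells, against 9.15 and 7.69 CPM in GSK cells, with groups far apart (log2 fold change 1.17 ± 0.13 (SE), adjusted p = 4.26e-05). HIST1H2BK had 191 and 191 CPM in Dox-GSK cells, against 128 and 126 CPM in GSK cells (log2 fold change 0.59 ± 0.08 (SE), adjusted p = 0.000267). HIST1H4H rose by a log2 fold change of 0.47 ± 0.10 (SE), adjusted p = 0.00725, and HIST1H2AG by a log2 fold change of 0.47 ± 0.11 (SE), adjusted p = 0.0173, and both calls were lost without Dox-GSK replicate 2. These genes are near-identical copies, and messages without a poly(A) tail are poorly captured by the mRNA kit used for the table, so their values are uncertain. DNMT1, the maintenance DNA methyltransferase, had 229 and 227 CPM in Dox-GSK cells, against 164 and 182 CPM in GSK cells (log2 fold change 0.40 ± 0.07 (SE), adjusted p = 0.00143). EZH2, the catalytic subunit of PRC2, had 47.0 and 51.5 CPM in Dox-GSK cells, against 36.8 and 32.6 CPM in GSK cells (log2 fold change 0.50 ± 0.10 (SE), adjusted p = 0.00434), and its call was lost without Dox-GSK replicate 2.

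**Figure D2:**
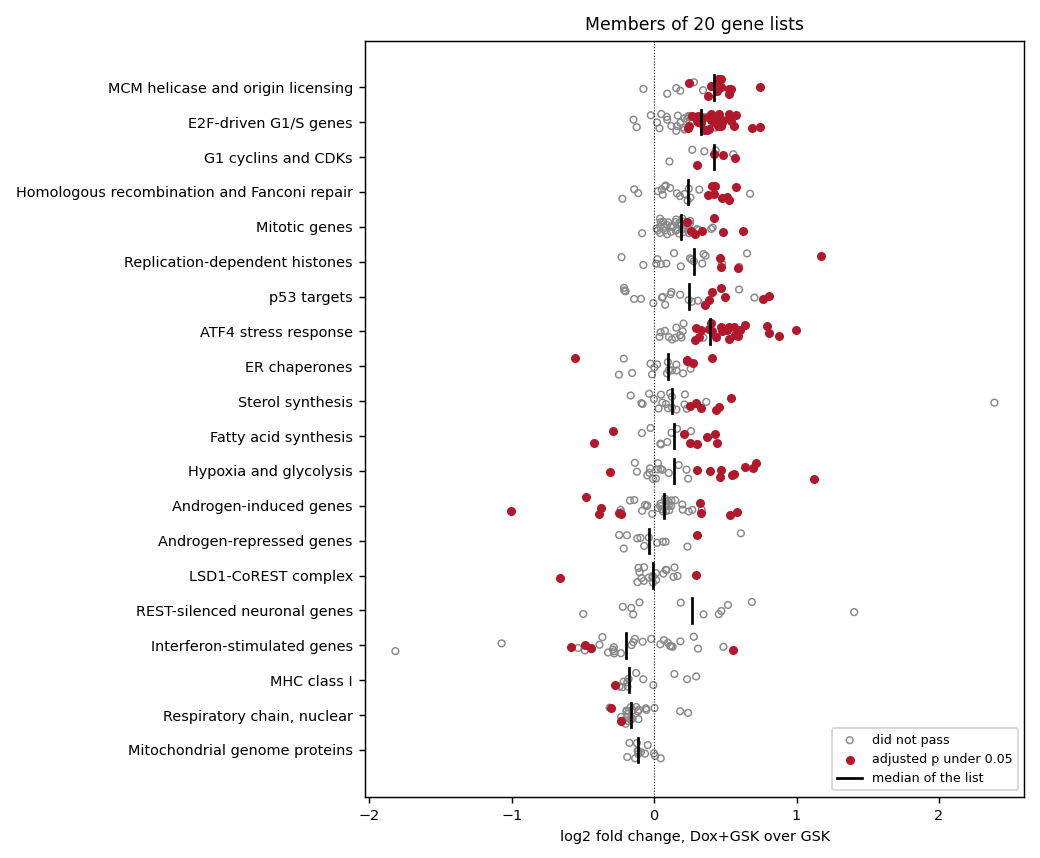
Log2 fold change of Dox-GSK over GSK cells (horizontal axis) for the measured members of 20 gene lists (rows), one point a gene, filled where the adjusted p was under 0.05, with the list median as a bar. The bars of the MCM, E2F and ATF4 lists stand at 0.42, 0.33 and 0.39, and that of the nuclear respiratory chain at -0.17.

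Genes of the amino acid stress response driven by ATF4 also rose. Of 34 measured members, 22 rose and none fell (median 0.39), and the count was 17 to 28 when single libraries were left out. STC2, a secreted glycoprotein induced by stress, had 407 and 399.6 CPM in Dox-GSK cells, against 217 and 222 CPM in GSK cells. The Dox-GSK libraries were far above the GSK libraries, with a log2 fold change of 0.88 ± 0.06 (SE), adjusted p = 1.76e-07. PSAT1, of serine synthesis, had 299.7 and 310.1 CPM in Dox-GSK cells, against 208 and 192 CPM in GSK cells (log2 fold change 0.61 ± 0.06 (SE), adjusted p = 2.4e-05). SLC7A11, the cystine transporter, had 133 and 137 CPM in Dox-GSK cells, against 86.3 and 69.5 CPM in GSK cells (log2 fold change 0.79 ± 0.09 (SE), adjusted p = 4.26e-05). SESN2, a stress sensor that restrains mTORC1, had 67.0 and 62.4 CPM in Dox-GSK cells, against 35.0 and 39.1 CPM in GSK cells (log2 fold change 0.81 ± 0.09 (SE), adjusted p = 3.88e-05). No left-out library ended these 4 calls. Endoplasmic reticulum chaperones did not follow as a group, with 4 rises and 1 fall among 20, and 1 or 2 rises when any 1 Dox-GSK, Dox-DMSO or DMSO library was left out. HSPA5, the chief chaperone of that compartment, fell to 934 and 938 CPM in Dox-GSK cells, against 1412 and 1345 CPM in GSK cells (log2 fold change -0.56 ± 0.05 (SE), adjusted p = 1.22e-05). HERPUD1, which acts in the disposal of misfolded proteins there, had 219 and 225 CPM in Dox-GSK cells, against 165 and 171 CPM in GSK cells (log2 fold change 0.41 ± 0.06 (SE), adjusted p = 0.001).

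Among 25 p53 targets 7 rose and none fell, a count that was 4 without Dox-GSK replicate 2 and 12 without GSK replicate 1. Besides CDKN1A and SESN2, which also belongs to the ATF4 list, they included TNFRSF10B, a death receptor, at 201 and 195 CPM in Dox-GSK cells, against 158 and 151 CPM in GSK cells (log2 fold change 0.36 ± 0.06 (SE), adjusted p = 0.00267). GDF15, a secreted stress cytokine, had 1484 and 1433 CPM in Dox-GSK cells, against 890.4 and 1179 CPM in GSK cells (log2 fold change 0.50 ± 0.09 (SE), adjusted p = 0.00303). One apoptosis gene of 24 rose and 1 fell. PMAIP1, which encodes the BH3-only protein NOXA, had 6.86 and 5.06 CPM in Dox-GSK cells, against 2.94 and 3.00 CPM in GSK cells (log2 fold change 1.02 ± 0.19 (SE), adjusted p = 0.00357), with its call lost without Dox-GSK replicate 1. BCL2L11, which encodes BIM, had 30.2 and 32.1 CPM in Dox-GSK cells, against 41.1 and 38.5 CPM in GSK cells (log2 fold change -0.36 ± 0.09 (SE), adjusted p = 0.0201), with its call lost without either Dox-GSK library.

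Genes of hypoxia and glycolysis were 26 in number, of which 10 rose and 1 fell (median 0.14). CA9, a carbonic anhydrase of the hypoxia response, had 19.1 and 14.9 CPM in Dox-GSK cells, against 7.04 and 8.76 CPM in GSK cells (log2 fold change 1.13 ± 0.15 (SE), adjusted p = 0.000259). PFKFB4 and PFKFB3 make the bisphosphate that speeds glycolysis. PFKFB4 had 301 and 281 CPM in Dox-GSK cells, against 176 and 185 CPM in GSK cells (log2 fold change 0.69 ± 0.07 (SE), adjusted p = 1.03e-05), and PFKFB3 had 275 and 265 CPM in Dox-GSK cells, against 177 and 191 CPM in GSK cells (log2 fold change 0.56 ± 0.07 (SE), adjusted p = 8.59e-05). EGLN3, a prolyl hydroxylase that is itself hypoxia-induced, had 102 and 100.5 CPM in Dox-GSK cells, against 62.8 and 60.1 CPM in GSK cells (log2 fold change 0.72 ± 0.07 (SE), adjusted p = 1.45e-05). P4HA2, a collagen hydroxylase, had 70.6 and 66.9 CPM in Dox-GSK cells, against 44.7 and 43.8 CPM in GSK cells (log2 fold change 0.64 ± 0.08 (SE), adjusted p = 0.000117). The groups of these 5 genes did not overlap. ALDOA, an enzyme of glycolysis, was the member that fell, to 4986 and 4598 CPM in Dox-GSK cells, against 5634 and 6274 CPM in GSK cells (log2 fold change -0.31 ± 0.06 (SE), adjusted p = 0.00649), and its call was lost without Dox-GSK replicate 2.

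Lipid genes rose in part. In the sterol list 6 of 25 rose and none fell, and 2 or 3 did without any 1 Dox-GSK, Dox-DMSO or DMSO library. INSIG1, a feedback regulator of sterol synthesis, had 372 and 402 CPM in Dox-GSK cells, against 272 and 259.7 CPM in GSK cells (log2 fold change 0.54 ± 0.07 (SE), adjusted p = 0.000117), and its call held without any 1 library. In the fatty acid list 6 of 16 rose and 2 fell, with 1 to 3 rises without any 1 Dox-GSK or Dox-DMSO library. FADS1, a desaturase, had 333 and 338 CPM in Dox-GSK cells, against 249.7 and 245 CPM in GSK cells (log2 fold change 0.44 ± 0.06 (SE), adjusted p = 0.000239), while ACLY, which supplies cytosolic acetyl-CoA, fell to 989 and 936 CPM in Dox-GSK cells, against 1275 and 1307 CPM in GSK cells (log2 fold change -0.42 ± 0.05 (SE), adjusted p = 0.000192).

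Androgen-regulated genes moved in both directions. Of 40 androgen-induced genes 4 rose and 6 fell (median 0.07). Rises numbered 2 without either Dox-GSK library and 7 without GSK replicate 1. RAB3B, of vesicle transport, had 219.8 and 239 CPM in Dox-GSK cells, against 169 and 149 CPM in GSK cells (log2 fold change 0.53 ± 0.07 (SE), adjusted p = 0.000259), and FKBP5, a co-chaperone of steroid receptors, had 92.3 and 94.2 CPM in Dox-GSK cells, against 75.8 and 73.1 CPM in GSK cells (log2 fold change 0.32 ± 0.07 (SE), adjusted p = 0.00846). The call of FKBP5 was lost without either Dox-GSK library. ODC1, the first enzyme of polyamine synthesis, fell to 797 and 815 CPM in Dox-GSK cells, against 1671 and 1561 CPM in GSK cells. Both Dox-GSK libraries were far below the GSK libraries, and the change was a log2 fold change of -1.003 ± 0.06 (SE), adjusted p = 1.18e-08. TMPRSS2, a surface protease, fell to 945 and 921 CPM in Dox-GSK cells, against 1308 and 1298 CPM in GSK cells (log2 fold change -0.48 ± 0.05 (SE), adjusted p = 5.06e-05). FOLH1, the prostate-specific membrane antigen, fell to 863 and 916 CPM in Dox-GSK cells, against 1244 and 1086 CPM in GSK cells (log2 fold change -0.39 ± 0.07 (SE), adjusted p = 0.00193), and CAMKK2, a kinase upstream of AMPK, to 301 and 299 CPM in Dox-GSK cells, against 380.0 and 397 CPM in GSK cells (log2 fold change -0.37 ± 0.06 (SE), adjusted p = 0.000934). KLK3, the gene of prostate-specific antigen, fell to 7279 and 6837 CPM in Dox-GSK cells, against 8227 and 8356 CPM in GSK cells (log2 fold change -0.23 ± 0.05 (SE), adjusted p = 0.0102), and KLK2 to 1199 and 1146 CPM in Dox-GSK cells, against 1360.5 and 1427 CPM in GSK cells (log2 fold change -0.25 ± 0.06 (SE), adjusted p = 0.0125). Both kallikrein calls were lost without Dox-GSK replicate 2.

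The summed level of the 10 prostate epithelial markers, which include KLK3 and KLK2, was 12923 and 12525 CPM in Dox-GSK cells, against 14705 and 14732 CPM in GSK cells. Of these markers 1 rose and 5 fell (2 without Dox-GSK replicate 2), and the part of this sum in the androgen result was not tested, since the lists overlap.

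Of 20 measured genes of LSD1 complexes 1 rose and 1 fell, where 4.52% of all genes tested rose and 3.20% fell. MTA2, a subunit of the NuRD complex that contains LSD1 in some forms, fell to 89.0 and 81.0 CPM in Dox-GSK cells, against 129 and 140.3 CPM in GSK cells (log2 fold change -0.66 ± 0.07 (SE), adjusted p = 4.26e-05). KDM1B, the paralog of KDM1A, had 54.9 and 51.3 CPM in Dox-GSK cells, against 44.0 and 42.8 CPM in GSK cells (log2 fold change 0.29 ± 0.08 (SE), adjusted p = 0.0336), but its call was lost without any 1 of the DMSO, Dox-DMSO or Dox-GSK libraries. None of 12 measured neuronal genes silenced by REST was called by edgeR, where 2 were up and 1 was down before adjustment (p under 0.05). DESeq2 also called 0 of them. Without GSK replicate 1 edgeR called 2 higher and 1 lower, as it did without GSK replicate 2, and with no filter or with the crossed pairing of replicates 1 was higher. Of 18 neuroendocrine markers, 7 passed the filter on low counts, and 1 of them rose, EZH2. CHGB, NEUROD1 and INSM1, defining members, had no counts in any of the 8 libraries. The summed level of the 18 markers was 412 and 403 CPM in Dox-GSK cells, against 376 and 370 CPM in GSK cells. It was 331 and 333 CPM in Dox-DMSO cells, against 364 and 368 CPM in DMSO cells, and these sums were not tested. The median log2 fold change of the 7 measured members was 0.18 with the inhibitor and 0.05 with DMSO.

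Of 16 immediate early genes, which respond within minutes to stimulation, 5 rose and none fell. Rises numbered 1 or 2 without either Dox-GSK library, 3 without either DMSO library and 8 without GSK replicate 2. ATF3, which is also in the ATF4 list, had 58.1 and 57.3 CPM in Dox-GSK cells, against 43.1 and 39.7 CPM in GSK cells (log2 fold change 0.48 ± 0.08 (SE), adjusted p = 0.002). FOS, a subunit of AP-1, had 8.70 and 9.56 CPM in Dox-GSK cells, against 5.47 and 5.69 CPM in GSK cells (log2 fold change 0.71 ± 0.15 (SE), adjusted p = 0.00731), and KLF4 had 23.8 and 22.9 CPM in Dox-GSK cells, against 15.8 and 18.1 CPM in GSK cells (log2 fold change 0.47 ± 0.11 (SE), adjusted p = 0.0118). JUND, another AP-1 subunit, had 213 and 222 CPM in Dox-GSK cells, against 138 and 194 CPM in GSK cells, with GSK replicate 2 close to the Dox-GSK libraries (log2 fold change 0.39 ± 0.10 (SE), adjusted p = 0.0292). The call of ATF3 held without any 1 library, that of FOS was lost without Dox-GSK replicate 2, and those of KLF4 and JUND without either Dox-GSK library. The call of JUND was also lost without GSK replicate 1 or either DMSO library. Among 6 measured genes of epithelial to mesenchymal transition 1 fell, FN1, the fibronectin gene, at 1045 and 1012 CPM in Dox-GSK cells, against 1189.9 and 1218 CPM in GSK cells (log2 fold change -0.23 ± 0.05 (SE), adjusted p = 0.0168), with its call lost without either Dox-GSK library.

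Interferon, MHC class I and respiratory chain genes had negative medians. Of 32 interferon-stimulated genes 3 fell and 1 rose (median -0.20), and 0 fell without Dox-GSK replicate 2 and 7 without GSK replicate 1. OAS3, a sensor of double-stranded RNA, had 60.3 and 54.6 CPM in Dox-GSK cells, against 36.9 and 41.6 CPM in GSK cells (log2 fold change 0.56 ± 0.09 (SE), adjusted p = 0.000867). STAT2, a signalling factor of type I interferon, fell to 48.3 and 47.2 CPM in Dox-GSK cells, against 62.3 and 67.9 CPM in GSK cells (log2 fold change -0.45 ± 0.08 (SE), adjusted p = 0.00348). IFITM3 and IFITM2, membrane proteins that restrict viral entry, fell with log2 fold changes of -0.48 ± 0.10, adjusted p = 0.00695, and -0.59 ± 0.13, adjusted p = 0.0119. The calls of these 3 that fell were lost without Dox-GSK replicate 2, and IFITM2 and IFITM3 are near-identical copies whose counts are uncertain. In the MHC class I list 1 of 13 fell (6 without GSK replicate 1), TAPBP, which helps to load peptides (log2 fold change -0.28 ± 0.07 (SE), adjusted p = 0.0203). Of 26 nuclear genes of the respiratory chain 2 fell and none rose (median -0.17), and 16 were lower at an unadjusted p under 0.05, as were 10.1% of all genes tested. The falls numbered 13 without GSK replicate 1 and 7 without GSK replicate 2. The members that fell were ATP5A1, of the ATP synthase (-0.24 ± 0.06, adjusted p = 0.0148), and COX6C, of cytochrome oxidase (-0.31 ± 0.07, adjusted p = 0.0171), and these calls, like that of TAPBP, were lost without either Dox-GSK library.

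Outside the lists, the largest falls after RB1 included PPIC, a cyclophilin, at 4.61 and 4.75 CPM in Dox-GSK cells, against 13.8 and 13.6 CPM in GSK cells (log2 fold change -1.56 ± 0.15 (SE), adjusted p = 1.33e-05). LAP3, a leucine aminopeptidase, had 24.5 and 21.4 CPM in Dox-GSK cells, against 54.5 and 51.0 CPM in GSK cells (log2 fold change -1.20 ± 0.09 (SE), adjusted p = 8.65e-07). ANO6, a lipid scramblase, had 14.4 and 16.4 CPM in Dox-GSK cells, against 32.2 and 31.3 CPM in GSK cells (log2 fold change -1.05 ± 0.11 (SE), adjusted p = 2.54e-05), and FAM169A had 3.63 and 3.43 CPM in Dox-GSK cells, against 8.00 and 6.88 CPM in GSK cells (log2 fold change -1.08 ± 0.16 (SE), adjusted p = 0.000646). In each the groups were separate, and the calls held without any 1 library. IL36RN, an antagonist of the IL-36 receptor, fell with a log2 fold change of -1.09 ± 0.24, adjusted p = 0.0116, at 1.74 to 4.07 CPM over the 4 libraries. RN7SK and the pseudogenes RNA5-8SP6, LAP3P2 and RPS24P7 also had large falls (log2 fold changes -1.10, -1.23, -1.22 and -1.12, in that order), but these share reads with near-identical copies and are uncertain. Large rises at low levels were those of LRRC10B (1.33 ± 0.17, adjusted p = 0.000192), IKZF3 (1.27 ± 0.24, adjusted p = 0.00385), TEX15 (1.27 ± 0.24, adjusted p = 0.0039), PRIMA1 (1.15 ± 0.31, adjusted p = 0.0282), HIST1H3B (1.26 ± 0.26, adjusted p = 0.00622) and RP1-86C11.7 (1.58 ± 0.24, adjusted p = 0.00082). LRRC10B had 9.62 and 10.2 CPM in Dox-GSK cells, against 3.27 and 4.75 CPM in GSK cells, and the other 5 had at most 4.31 CPM in the 4 libraries. The calls of TEX15 and HIST1H3B were lost without Dox-GSK replicate 1, those of LAP3P2 and IL36RN without either Dox-GSK library, and those of PRIMA1 and RPS24P7 without either Dox-GSK library or GSK replicate 1.

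Whether the effect of doxycycline differed with and without the inhibitor was tested as an interaction over the 8 libraries. It passed for 3 genes (0.0163% of those tested), all of them lower, and for 0 in the upward direction. Before adjustment 464 genes were up and 415 down at a p under 0.05, and DESeq2 called 2 higher and 2 lower. The calls numbered 70 higher and 125 lower without GSK replicate 1, 36 and 40 without GSK replicate 2, 15 lower without DMSO replicate 2, and 0 lower without Dox-GSK replicate 2. A difference that does not pass is not shown to be absent. For RB1 the difference did not pass (difference 0.03 ± 0.26, adjusted p = 0.995), with 4.64 and 6.24 CPM in Dox-DMSO cells, against 23.4 and 26.1 CPM in DMSO cells.

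The 3 genes were RNA5-8SP6, CTD-2328D6.1 and MT-ND4L, of which the last is a protein gene of the mitochondrial genome. MT-ND4L had 962 and 1018 CPM in Dox-GSK cells, against 1005 and 912 CPM in GSK cells, and 1048 and 1066 CPM in Dox-DMSO cells, against 454 and 630.4 CPM in DMSO cells. The DMSO libraries were the low ones, and the difference of the effects was -0.92 ± 0.14, adjusted p = 0.039. It was lost without either Dox-DMSO or either Dox-GSK library. For all 13 mitochondrial protein genes the difference was negative (median -0.71) with an unadjusted p under 0.05, as 2.25% of all genes tested were lower at that p, though MT-ND4L alone was called. In the inhibitor arm 0 of the 13 were called (1 was lower and none higher before adjustment, and DESeq2 also called 0). In that arm 7 were lower without GSK replicate 2, 4 with no filter on low counts and 1 without either DMSO library. With DMSO 12 rose. The share of counts in these genes was 3.99% and 4.14% in Dox-GSK cells and 4.61% and 4.05% in GSK cells. It was 4.41% and 4.40% in Dox-DMSO cells and 2.72% and 3.58% in DMSO cells, so that the DMSO libraries stood lowest and also differed from each other. The part of these DMSO libraries in the difference was not tested.

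For hypoxia genes the difference passed edgeR's test at an adjusted p under 0.05 in 0 of 26 members. Of these, 25 had a positive difference (median 0.22), as had 52.1% of all genes tested, and 13 were higher at an unadjusted p under 0.05, as were 2.52% of all genes. PFKFB4 was nearest, with 172 and 172 CPM in Dox-DMSO cells, against 163 and 151 CPM in DMSO cells. The Dox-GSK libraries were the highest of the 8, and the difference was 0.56 ± 0.09, adjusted p = 0.0737. Its adjusted p ranged over 1.63e-06 to 0.994 when single libraries were left out. STC2 had 286 and 279 CPM in Dox-DMSO cells, against 211 and 206 CPM in DMSO cells, and its difference was 0.44 ± 0.08, adjusted p = 0.207. For EGLN3 the difference was 0.44 ± 0.10, adjusted p = 0.54, and for CA9 it was 0.39 ± 0.22, adjusted p = 0.984. With DMSO, 6 hypoxia genes rose and 5 fell.

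**Figure D3:**
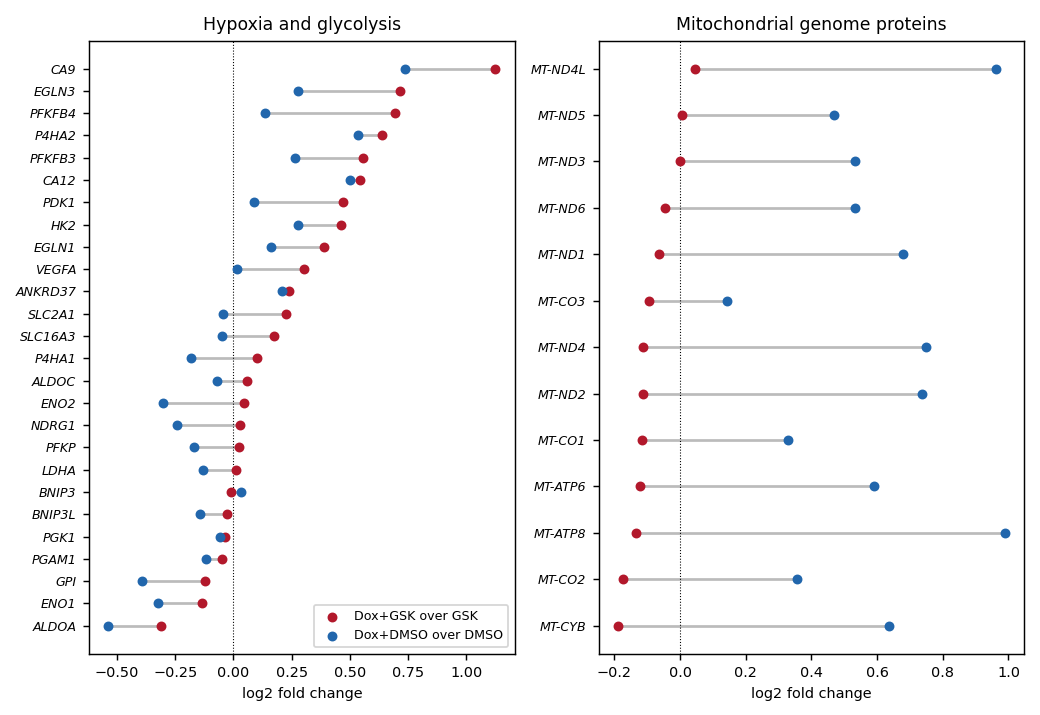
Log2 fold change with doxycycline (horizontal axis) of the 26 hypoxia and glycolysis genes and the 13 mitochondrial protein genes (rows), red for Dox-GSK over GSK and blue for Dox-DMSO over DMSO. The red point lies right of the blue in 25 of the 26 hypoxia genes, and left of it in the 13 mitochondrial genes.

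Many of the same genes changed without the inhibitor. In Dox-DMSO against DMSO cells 783 genes rose (4.25% of those tested) and 661 fell (3.59%), together 7.84%. Without any 1 of the 4 libraries compared there, 149 to 274 rose and 130 to 238 fell, and without either GSK library 1628 to 1676 rose and 1524 to 1550 fell. Of the 832 genes that rose in Dox-GSK cells, 415 (49.9%) also rose there, out of 783. Of the 590 that fell, 303 (51.4%) also fell there, which is 45.8% of the 661. These overlaps depended on every library. Without either Dox-GSK library the shared rises numbered 146 and 183 and the shared falls 108 and 130, and without either GSK library there were 729 and 743 shared rises and 555 and 739 shared falls. Without either Dox-DMSO library the shared rises numbered 133 and 146 and the shared falls 98 and 99. Without DMSO replicate 2 they numbered 159 and 134, and without DMSO replicate 1 the shared rises were fewest and the shared falls numbered 111. Calls in opposite directions were 0 and 1. Of the genes called with the inhibitor, 96.4% of the rises and 97.3% of the falls had the same sign with DMSO. Over all genes tested, 49.7% had a positive log2 fold change with DMSO. The libraries of these comparisons are separate, but they were fitted together and share the cell line and the table. E2F-driven G1/S genes rose in 23 of 55 cases with DMSO (median 0.30), MCM and licensing genes in 9 of 18 and ATF4 genes in 21 of 34. CCND1 had 608 and 596 CPM in Dox-DMSO cells, against 614 and 577 CPM in DMSO cells, groups that overlapped, with a log2 fold change of 0.02 ± 0.06, adjusted p = 0.907. The difference of its effects did not pass (0.29 ± 0.08, adjusted p = 0.857).

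**Figure D4:**
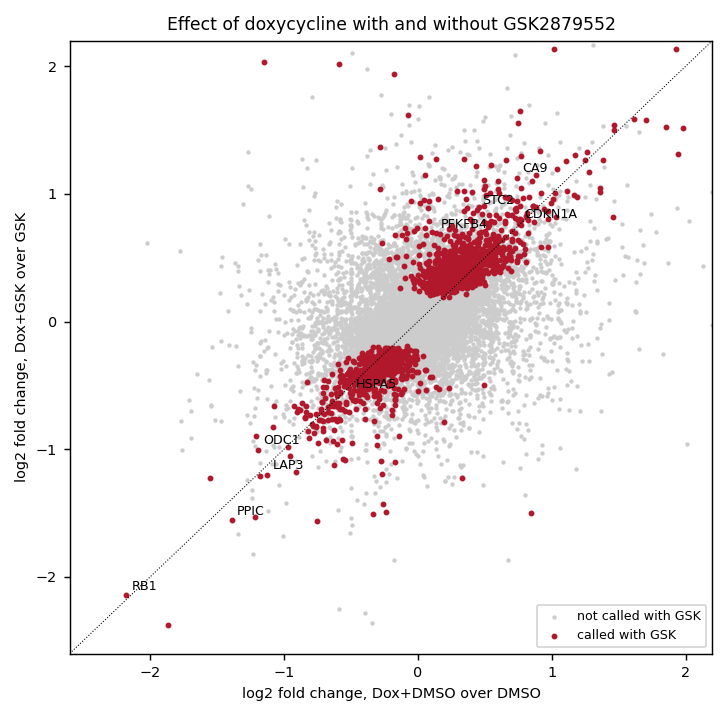
Log2 fold change of each gene in Dox-DMSO over DMSO cells (horizontal axis) and in Dox-GSK over GSK cells (vertical axis), with the 1422 genes called with GSK2879552 in red and equality as a dotted line. Most red points have the same sign on both axes, and 17 genes, MIR30A among them, lie outside the axes.

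A second table of the same line allowed a look at 3 days of doxycycline in other libraries. The columns numbered as replicates differed by about the sampling noise and were counted as 1. With 1 sample a condition no test was made. Those cells had vehicle, or dihydrotestosterone (DHT) at 10 nM for 24 hours, and the medium and the library kit differed from those above. RB1 had 140 counts with doxycycline, against 769 without it in vehicle (log2 ratio -2.57, 95% interval -2.86 to -2.33), and 140 against 702 with DHT (-2.34, -2.63 to -2.09). These are Clopper-Pearson intervals for counting error. The ratios of MIR30A were 5.73 with vehicle and 5.65 with DHT. The E2F-driven G1/S genes had a median ratio of 0.23 with vehicle and 0.50 with DHT. CDT1 had 0.37 with vehicle and 0.64 with DHT, and MCM6 0.36 with vehicle and 0.60 with DHT.

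Several genes and the ATF4 list, called in Dox-GSK cells, had ratios near 0 in that table. The ATF4 list had medians of 0.05 with vehicle and -0.06 with DHT, where it had 0.39 in Dox-GSK cells. STC2 had -0.03 with vehicle and 0.05 with DHT. ODC1 had 1173 CPM with doxycycline, against 1080.2 CPM without it in vehicle, a ratio of 0.12, and -0.13 with DHT. LAP3 had 0.13 with vehicle and 0.01 with DHT, and PPIC 0.00 with vehicle and 0.10 with DHT. The hypoxia and glycolysis list had medians of -0.10 with vehicle and -0.09 with DHT, where it had 0.14 in Dox-GSK cells. Of the genes that rose in Dox-GSK cells 66.3% had a positive ratio with vehicle and 69.1% with DHT, and of those that fell 45.1% and 73.6% had a negative one. The shares over all genes of that table were not computed, so these values have no background to be judged against. Differences between the tables cannot be told apart from those of medium, kit and time of culture.

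In VCaP cells, another prostate cancer line, an siRNA against RB1 at 20 nM for 2 days was set against a control siRNA, with 3 libraries each. RB1 had 5.35, 6.74 and 7.41 CPM with RB1 siRNA, against 56.5, 60.0 and 63.9 CPM with control siRNA. Here 417 of 14066 genes rose (2.96%) and 373 fell (2.65%), together 5.62%. Rises numbered 260 without control replicate 2 or 3 and 264 without RB1 siRNA replicate 2. Of 726 genes that rose in Dox-GSK cells and were tested in both tables, 87 (11.98%) also rose in VCaP, which is 21.9% of those that rose there, and 35 fell. Of 525 that fell, 29 (5.52%) also fell, which is 8.50% of those that fell there, and 10 rose. The sign in VCaP was the same for 58.0% of these 726 rises and 58.5% of these 525 falls. Over all genes tested in VCaP, 49.6% had a positive log2 fold change. E2F-driven G1/S genes rose in 24 of 55 cases (median 0.24) and MCM and licensing genes in 9 of 18. MCM2 rose by 0.34 ± 0.04, adjusted p = 1.47e-08, and E2F1 by 0.41 ± 0.06, adjusted p = 1.06e-07. Of 31 interferon-stimulated genes 21 rose in VCaP and none fell, where 1 of 32 rose and 3 fell in Dox-GSK cells. Mitotic genes had 1 rise and 10 falls among 46. The ATF4 list had 19 rises and no fall among the 33 members tested in VCaP (median 0.19). Hypoxia and glycolysis genes had 11 rises and no fall among 24 (median 0.23). The differences between the lines were not tested, and line, method and medium differ together.

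**Figure D5:**
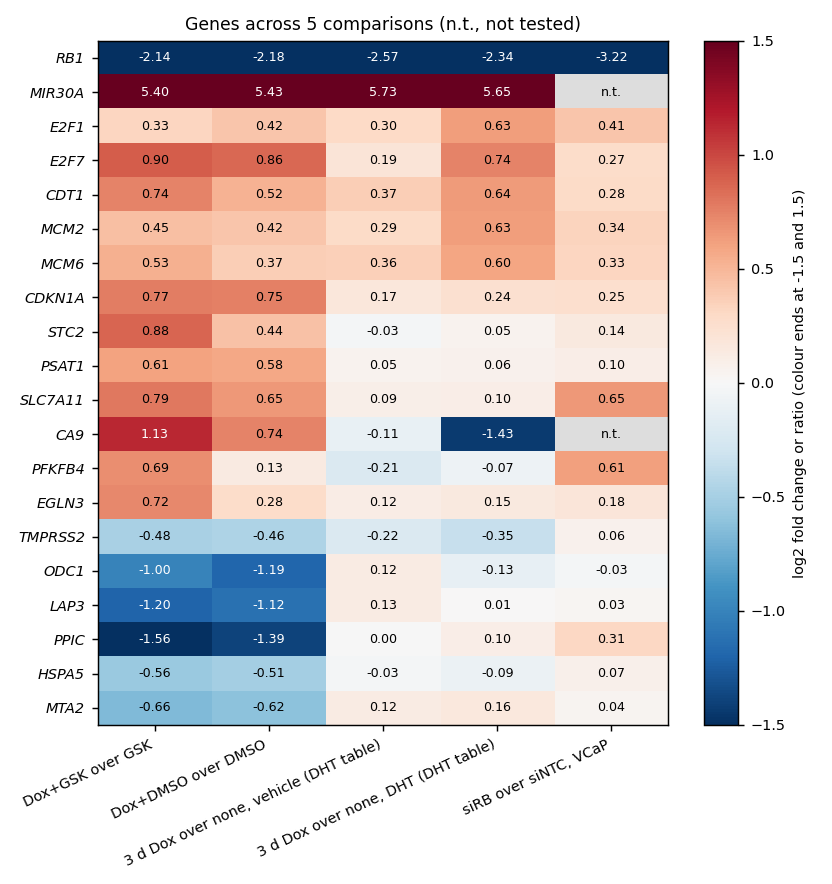
Log2 fold change or ratio of 20 genes (rows) in 5 comparisons (columns), as colour and number, the columns from the DHT table being ratios of 1 library to 1 library. RB1 is negative in each column, CDT1, MCM2 and MCM6 are positive in each, and ODC1, LAP3 and PPIC are between -1.56 and -1.003 in the first 2 columns and between -0.13 and 0.31 in the other 3.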

How the data were processed

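RNA was extracted from cultured cells, and libraries were made with a stranded mRNA kit for the C4-2 table with GSK2879552 and for VCaP, and with a stranded total RNA kit for the DHT table, per the labels' protocols. The submitters' processing notes name FastQC 0.11.9, the aligner STAR 2.7.2, the counter featureCounts 1.6.4 and the builds hg19 and GRCh37. The authors deposited raw counts per Ensembl gene for 57773 genes, without normalization. The strand setting, the annotation version and the handling of reads with several alignments are not given in the sources used here, so overlapping and antisense genes and near-identical copies are uncertain.

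The 8 C4-2 libraries were fitted together in edgeR 4.0.16 under R 4.3.3, after filterByExpr and TMM scaling. A gene was called when the quasi-likelihood F test gave a p under 0.05 after Benjamini-Hochberg adjustment. The SE was taken as the size of the log2 fold change over the root of its F value. The fit had 4 residual and 12.9 prior degrees of freedom, and a biological coefficient of variation of 5.79%. VCaP libraries were fitted in the same way. In the DHT table the titles number the columns of a condition as replicates, but per the labels' descriptions both carry the same index and differ in a lane tag. They differed by about the sampling noise (chi-square ratio 0.983 to 1.01 over all conditions of that table), were summed and were counted as 1 sample. Ratios used TMM and a prior count of 2. CPM values were computed from the counts with the same scaling. In data simulated from these libraries with 18128 genes, 76 of 100 genes changed 1.5-fold and 96 of 100 changed 2-fold were called, with 10 false calls of 182. The GSK pair had a wider spread (chi-square ratio 7.88) than the other pairs fitted with it (1.61 to 3.56). Whether the simulated rates hold with such an uneven spread was not tested, so they may not apply to Dox-GSK against GSK cells.

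The comparison, its 34 gene lists and the genes named were chosen with earlier results of these data known. The genes named are RB1, KDM1A, E2F1, KLK3 and MIR30A, the 10 leading rises and the 10 leading falls that passed the test and averaged a log2 CPM of 1 or more, up to 4 members a list and direction with the smallest p, and for the difference of effects the 6 with the smallest p. CHGB, NEUROD1 and INSM1 were added as markers, and a few genes that the rule names are not reported here. Alternatives were DESeq2 1.42.0 and its size factors, limma 3.58.1 voom with quality weights, no filter, and library sizes without mitochondrial genes and MIR30A. Others were a replicate block, the 4 libraries alone, and each library left out. In the C4-2 table a left-out library leaves its group with 1, which then adds nothing to the estimate of the spread. Promoter and microRNA sequences are from RefSeq.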

Additional observations from a re-analysis of the deposited data

Results flagged for a closer look

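The effect of doxycycline differed between cells with and without GSK2879552 for 3 genes, by edgeR's interaction test. For RNA5-8SP6, a ribosomal RNA pseudogene, the difference was -1.56 ± 0.19, adjusted p = 0.00456, with 7.68 and 6.99 CPM in Dox-GSK cells, against 15.5 and 19.2 CPM in GSK cells, and 13.3 and 12.5 CPM in Dox-DMSO cells, against 9.52 and 10.9 CPM in DMSO cells. For CTD-2328D6.1 it was -0.995 ± 0.13, adjusted p = 0.00456, with 99.9 and 91.7 CPM in Dox-GSK cells, against 127 and 145 CPM in GSK cells, and 133 and 125 CPM in Dox-DMSO cells, against 82.7 and 100.2 CPM in DMSO cells. For MT-ND4L it was -0.92 ± 0.14, adjusted p = 0.039, with the levels given above beside the mitochondrial genes. RNA5-8SP6 shares reads with near-identical copies and is uncertain, as said above. In the DHT table the ratio with 3 days of doxycycline was 1.08 with vehicle and -0.15 with DHT for RNA5-8SP6. For CTD-2328D6.1 these ratios were 1.48 and -0.59, so both genes differed in sign between the conditions there. The first 2 calls were lost without DMSO replicate 1 or Dox-GSK replicate 2.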

How the results depend on the processing

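With 2 libraries a group and a wide spread in the GSK pair, the number of calls moved most. Of 103 named genes called in Dox-GSK against GSK cells, 54 to 102 kept their call over the alternatives and none changed sign in those run. For this comparison the main counts were 832 higher and 590 lower. They were 509 higher with voom and quality weights, and 274 and 203 with the 4 libraries alone. Leaving out single libraries gave 188 to 1625 higher and 128 to 1576 lower. For the difference of effects (0 and 3) DESeq2 gave 2 higher, voom 2 and 10, no filter 7 and 32, and left-out libraries 0 to 70 higher and 0 to 125 lower. For doxycycline with DMSO (783 and 661) voom gave 1474 and 1487, the 4 libraries alone 1836 and 1704, and left-out libraries 149 to 1676 and 130 to 1550. For VCaP (417 and 373) DESeq2 gave 171 and 170, and left-out libraries 260 to 431 and 255 to 395. Over left-out libraries the difference for RB1 ran over -0.21 to 0.34, and the fold change of MT-ND4L with GSK2879552 over -0.024 to 0.11 (with -0.0081 without Dox-GSK replicate 2), both changing sign and neither called. The causes of these shifts were not tested.

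Replicate numbers were checked for pairing. Same-numbered libraries of Dox-GSK and GSK had a correlation of deviations of -0.12, which gives no sign of pairing by number. It cannot exclude shared cultures or a shared batch, since the spread between replicates may hide them. With the replicate block the counts were 541 and 362 for doxycycline with GSK2879552 and 380 lower with DMSO. A crossed pairing, chosen after seeing the data, gave 678 higher and 463 lower with GSK2879552.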
